A study of Homo sapiens with 6 samples.

Results

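The genes described here are 9 markers commonly used to recognise breast cancer stem cells: CD44, CD24, EPCAM, PROM1, ALDH1A1, ALDH1A3, SOX2, SOX4 and SOX9. They were found by NCBI Gene ID among the 16623 genes of the RNA-seq data, and all 9 were present. The cells were MDA-MB-231, an established triple-negative breast cancer cell line of mesenchymal appearance, grown attached to plastic. They received either PCI-24781, an inhibitor of many histone deacetylases (HDACs), at 100 nM or 200 nM, or its solvent DMSO, for 24 h or 48 h. Each of the 6 combinations of dose and time gave 1 library, which is named here by its dose (DMSO, 100 nM or 200 nM) followed by its time. There were therefore no replicates, no difference below has an error between cultures, and none was tested for significance.

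A cancer stem cell is a tumour cell that can renew itself and give rise to the other cells of the tumour. In breast cancer such cells are usually recognised on the surface, as cells with much CD44 and little CD24, with or without EPCAM, or inside the cell, by the activity of aldehyde dehydrogenases of the ALDH1A group. PROM1 (CD133) is a further surface marker, and SOX2, SOX4 and SOX9 are transcription factors linked to self-renewal, to epithelial-mesenchymal transition and to mammary progenitor cells, respectively. MDA-MB-231 is known as a line in which most cells carry the CD44-high, CD24-low surface pattern. Histone deacetylases remove acetyl groups from histones, a change that usually goes with lower transcription, and their inhibitors raise histone acetylation. Because RNA was taken from whole cultures, fewer cells of a type and less RNA per cell cannot be told apart in any of these values.

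Expression was given by the authors as FPKM, the number of fragments on a gene scaled by transcript length and by the size of the library. The size of each library, inferred from the steps between low FPKM values, was between 15600000 and 18000000 fragments. The 95% intervals given below are exact intervals for counting error at that depth, and they do not cover variation between cultures. Differences are given on the scale of log2(FPKM + 1), and the call of higher or lower required at least a 2-fold difference on this scale together with 1 FPKM or more in either library. The mesenchymal marker VIM was between 1629.38 and 2053.39 FPKM, while ESR1 did not exceed 0.04 FPKM and PGR did not exceed 0.03 FPKM in any library. ERBB2, which is not amplified in this line, was still measured at 13.16 to 21.36 FPKM, and FOXA1 at 1.28 to 1.75 FPKM. The epithelial cadherin CDH1 was at 0.24 to 0.39 FPKM. Of 7 markers of other cell types, 4 were listed, with a summed FPKM of 1.2 to 3.35. The endothelial marker PECAM1 made up the larger part of this sum in the library where it was highest, at 2.33 FPKM in 200 nM 48 h, the leukocyte marker PTPRC was at 0.76 to 1.01 FPKM and the largest part of the sum in DMSO 24 h, and CDH5 and CD3E did not exceed 0.04 FPKM.

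The sequences before the transcription start of 4 of the 9 genes are shown, chosen for a large difference or as a pair of relatives. Those of CD44, PROM1 and SOX2 are not shown. CD24 had the largest difference with PCI-24781 and SOX4 the largest between the DMSO libraries, and ALDH1A1 and ALDH1A3 are relatives of which only ALDH1A3 reached 1 FPKM. The 250 bases upstream of the start were taken from RefSeq on GRCh38.p14, which is a later build than that of the deposited files. Capitals mark a GC box (GGGCGG or CCGCCC), the core letters bound by Sp1-type factors, or a CCAAT box (CCAAT or ATTGG), the letters bound by NF-Y. Both strands were searched and overlapping matches were counted separately.
CD24, first of 3 listed starts, chr6:106975628-106975877, minus strand: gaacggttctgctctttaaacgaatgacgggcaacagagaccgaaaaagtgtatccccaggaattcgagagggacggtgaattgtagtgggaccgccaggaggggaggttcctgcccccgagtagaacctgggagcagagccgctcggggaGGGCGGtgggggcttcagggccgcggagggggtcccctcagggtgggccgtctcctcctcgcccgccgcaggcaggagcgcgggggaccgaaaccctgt
SOX4, chr6:21593501-21593750, plus strand: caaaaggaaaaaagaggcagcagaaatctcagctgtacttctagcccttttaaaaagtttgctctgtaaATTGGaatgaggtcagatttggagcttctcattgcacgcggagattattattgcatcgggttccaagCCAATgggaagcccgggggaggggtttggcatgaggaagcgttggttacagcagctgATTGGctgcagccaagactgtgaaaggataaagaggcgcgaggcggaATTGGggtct
ALDH1A1, chr9:72953054-72953303, minus strand: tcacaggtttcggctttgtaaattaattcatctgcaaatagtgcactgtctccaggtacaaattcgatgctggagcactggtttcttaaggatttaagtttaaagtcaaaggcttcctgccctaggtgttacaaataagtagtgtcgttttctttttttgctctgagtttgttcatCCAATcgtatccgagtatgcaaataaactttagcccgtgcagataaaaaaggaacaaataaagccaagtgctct
ALDH1A3, chr15:100879581-100879830, plus strand: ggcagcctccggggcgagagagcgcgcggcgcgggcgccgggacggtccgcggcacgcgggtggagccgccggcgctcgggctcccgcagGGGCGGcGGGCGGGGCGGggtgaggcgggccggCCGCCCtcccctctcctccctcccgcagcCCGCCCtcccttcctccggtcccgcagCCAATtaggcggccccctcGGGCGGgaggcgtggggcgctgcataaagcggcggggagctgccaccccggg
Of 35116 promoters in the table, 42.6% held a GC box and 32.0% a CCAAT box in this window, and the median GC content was 58.0%. The window of the first CD24 start was 65.6% G and C with 1 GC box and no CCAAT box. The second start, not shown, had 73.2% GC and neither box, and the third 64.0% GC with 1 GC box and 1 CCAAT box. The SOX4 window held 4 CCAAT boxes and no GC box at a GC content of 48.8%. The ALDH1A relatives were far apart, with 38.4% GC, no GC box and 1 CCAAT box for ALDH1A1, and 82.4% GC, 6 GC boxes and 1 CCAAT box for ALDH1A3. These matches describe the letters only. EPCAM and SOX9 had no entry in the promoter table.

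The 9 markers covered almost the whole range of expression in these cells. CD44 was by far the most abundant, with a mean of 190.0 FPKM over the 6 libraries, followed by SOX9 at 15.0, CD24 at 13.6, SOX4 at 5.12, EPCAM at 3.11 and ALDH1A3 at 2.09 FPKM. SOX2 had a mean of 0.128 FPKM, ALDH1A1 of 0.0117 and PROM1 of 0.00167. The order of the neighbours SOX9 and CD24 was not the same in all libraries, since CD24 was above SOX9 with either dose at 24 h and with 200 nM at 48 h, and below it in the other 3 libraries. CD24 was also below SOX4 in the 100 nM 48 h library. EPCAM and ALDH1A3 stood above SOX4 in DMSO 24 h and below it in the other 5 libraries. CD44 was first and SOX2, ALDH1A1 and PROM1 were the last 3 in every library. SOX2, ALDH1A1 and PROM1 did not reach 1 FPKM in any library, so 6 of the 9 genes entered each comparison.

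**Figure D1:**
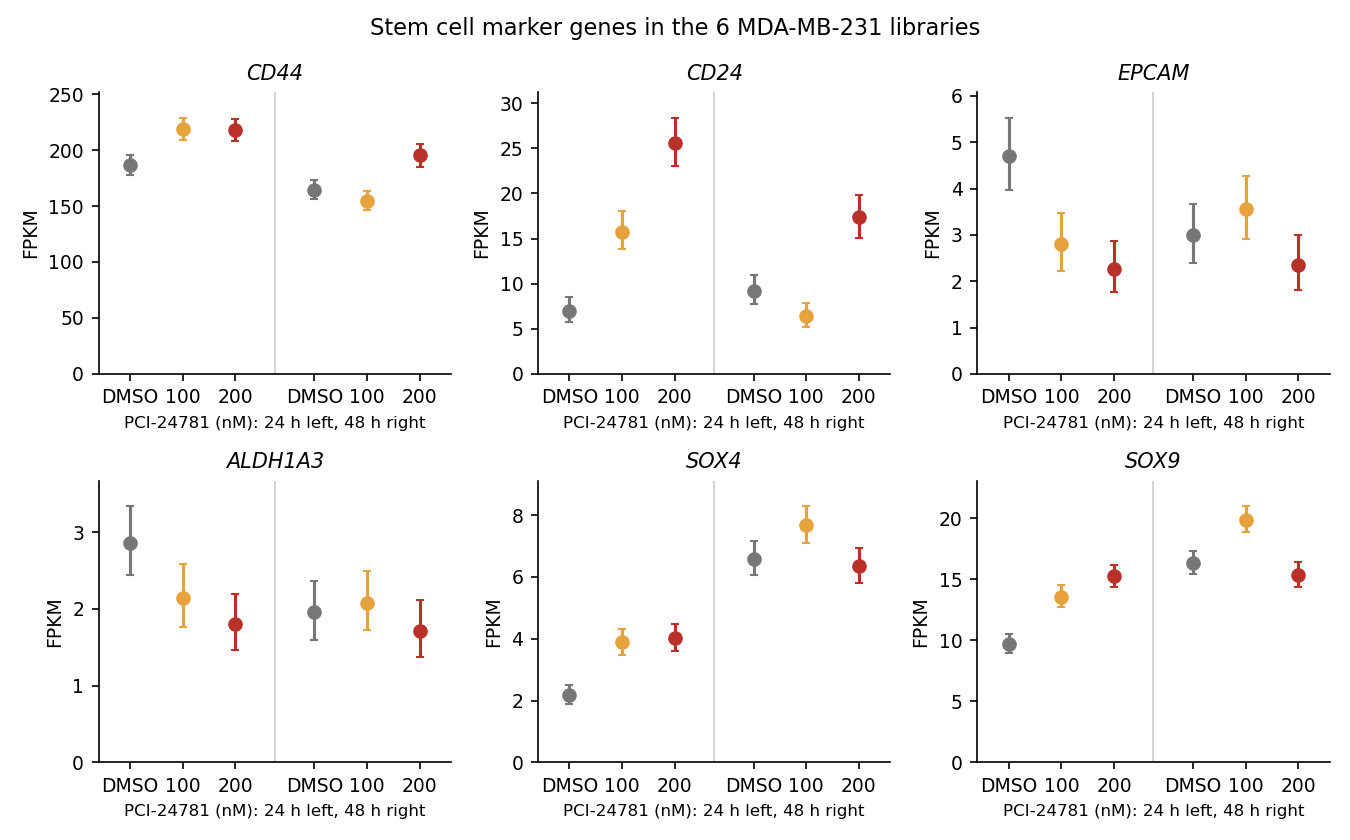
FPKM (vertical axes, each starting at 0) of the 6 markers that reached 1 FPKM, in the libraries of DMSO (grey), 100 nM (orange) and 200 nM PCI-24781 (red), with 24 h left and 48 h right of the line; each point is 1 library and each bar its 95% counting interval. CD24 is highest at 200 nM at both times, while DMSO 24 h is the highest library for EPCAM and ALDH1A3 and the lowest for SOX4 and SOX9.

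The treated cells were first compared with DMSO at 24 h. At 100 nM, 1 of the 6 markers was called higher, CD24, and 0 were called lower, where 1.35% of the 11475 genes tested were called higher and 0.131% lower. At 200 nM the call was again CD24 alone, with 4.47% of 11660 genes called higher and 1.48% lower. At both doses 4 markers were above and 2 below their DMSO level, with a median difference of 0.33 and 0.41 on the log2 scale against 0.01 over all tested genes. The 4 were CD44, CD24, SOX4 and SOX9, and the 2 were EPCAM and ALDH1A3. The doses share the DMSO library, so the like signs are not separate observations.

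At 48 h, none of the 6 markers was called in either direction. Among all genes, 0.0608% were called higher and 0.408% lower at 100 nM, and 0.206% higher and 0.06% lower at 200 nM. The median difference of the markers was 0.12 at 100 nM, where all genes had -0.01, and -0.07 at 200 nM, where all genes had 0.01. CD44, SOX4, SOX9 and CD24 no longer stood on 1 side of DMSO together, as SOX4 and SOX9 were above it at 100 nM and below it at 200 nM, and CD44 and CD24 the reverse. EPCAM and ALDH1A3 were also above DMSO at 100 nM and below it at 200 nM.

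**Figure D2:**
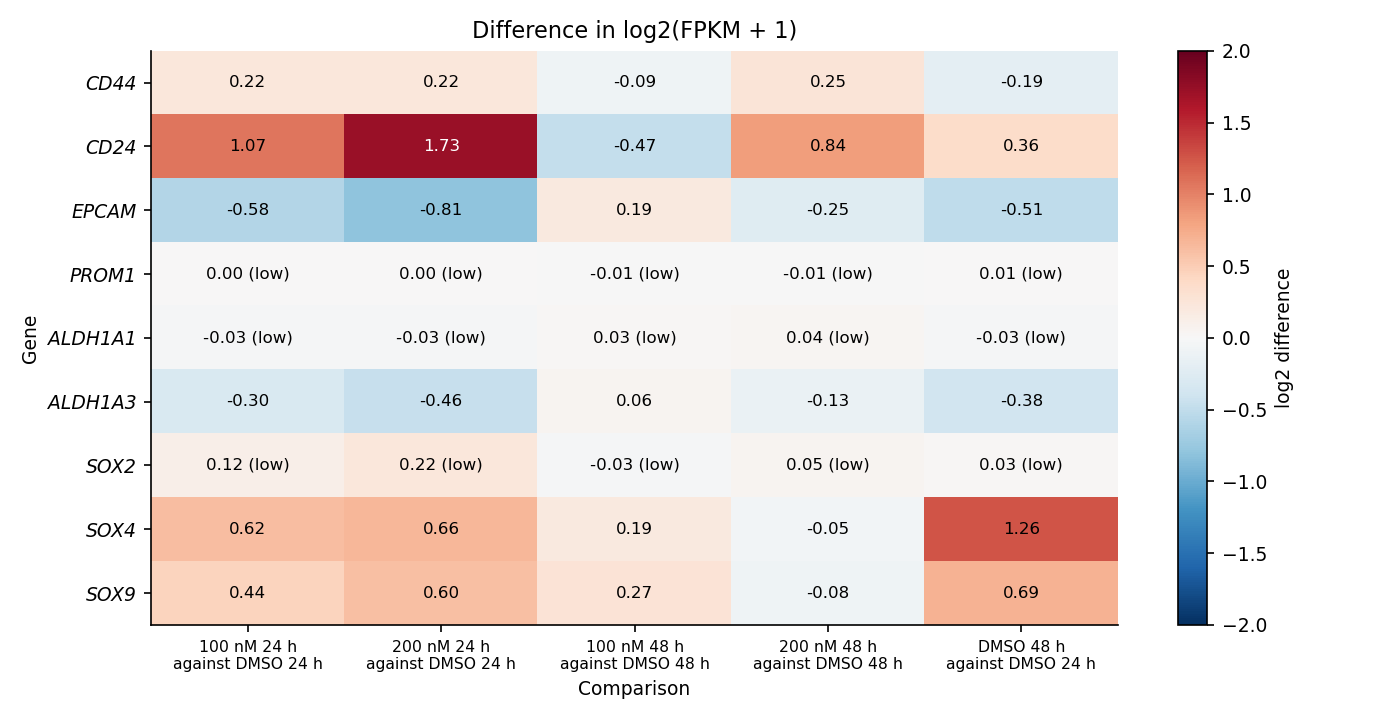
Difference in log2(FPKM + 1) of the 9 markers (rows) in the 4 comparisons with DMSO of the same time and between the DMSO libraries (columns), red for higher and blue for lower in the library named first; "low" marks genes under 1 FPKM in both libraries. The differences of 1 or more are those of CD24 at 24 h, 1.07 and 1.73, and of SOX4 between the DMSO libraries, 1.26.

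CD24 is a small, heavily glycosylated protein tethered to the outer membrane by a lipid anchor, and its scarcity is the negative part of the CD44-high, CD24-low pattern. It was the marker with the largest difference in each of the 4 comparisons with DMSO. At 24 h its level was 6.99 FPKM in DMSO, 15.76 with 100 nM and 25.57 with 200 nM, while the 48 h libraries gave 9.23, 6.41 and 17.36 FPKM in the same order. The 200 nM libraries thus had the highest CD24 of their time, and 100 nM lay above DMSO at 24 h but below it at 48 h. The log2 difference from DMSO was 1.07 at 100 nM and 1.73 at 200 nM at 24 h, and -0.47 and 0.84 at 48 h. As a ratio of FPKM, the 200 nM library was 3.66 times its DMSO library at 24 h (95% counting interval 2.92 to 4.61) and 1.88 times at 48 h (1.5 to 2.35). The corresponding ratios at 100 nM were 2.25 (1.77 to 2.88) and 0.694 (0.527 to 0.916). None of these intervals includes a ratio of 1.

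Set among all tested genes, CD24 lay near the edge of each distribution. For 200 nM, a difference at least as high was found for 0.832% of genes after 24 h and for 0.506% after 48 h, although CD24 was called at the first time alone. For 100 nM the share at least as high was 1.1% after 24 h, and the share at least as low was 3.18% after 48 h. Between the doses, CD24 was 1.62 times higher at 200 nM than at 100 nM at 24 h (1.37 to 1.93) and 2.71 times at 48 h (2.1 to 3.47). In the first of these comparisons 0 of the 6 markers were called, beside 0.343% of all genes called higher and 0.18% lower. In the second CD24 alone was called, as higher, beside 1.71% called higher and 0.291% lower. The 100 nM libraries also differed from each other, with CD24 at 48 h at 0.407 times its level at 24 h (0.317 to 0.524). CD24 was the 1 marker called there, as lower, beside 0.857% of genes called lower and 0.961% higher. Comparisons between doses and between the 100 nM times were added after the values were known.

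**Figure D3:**
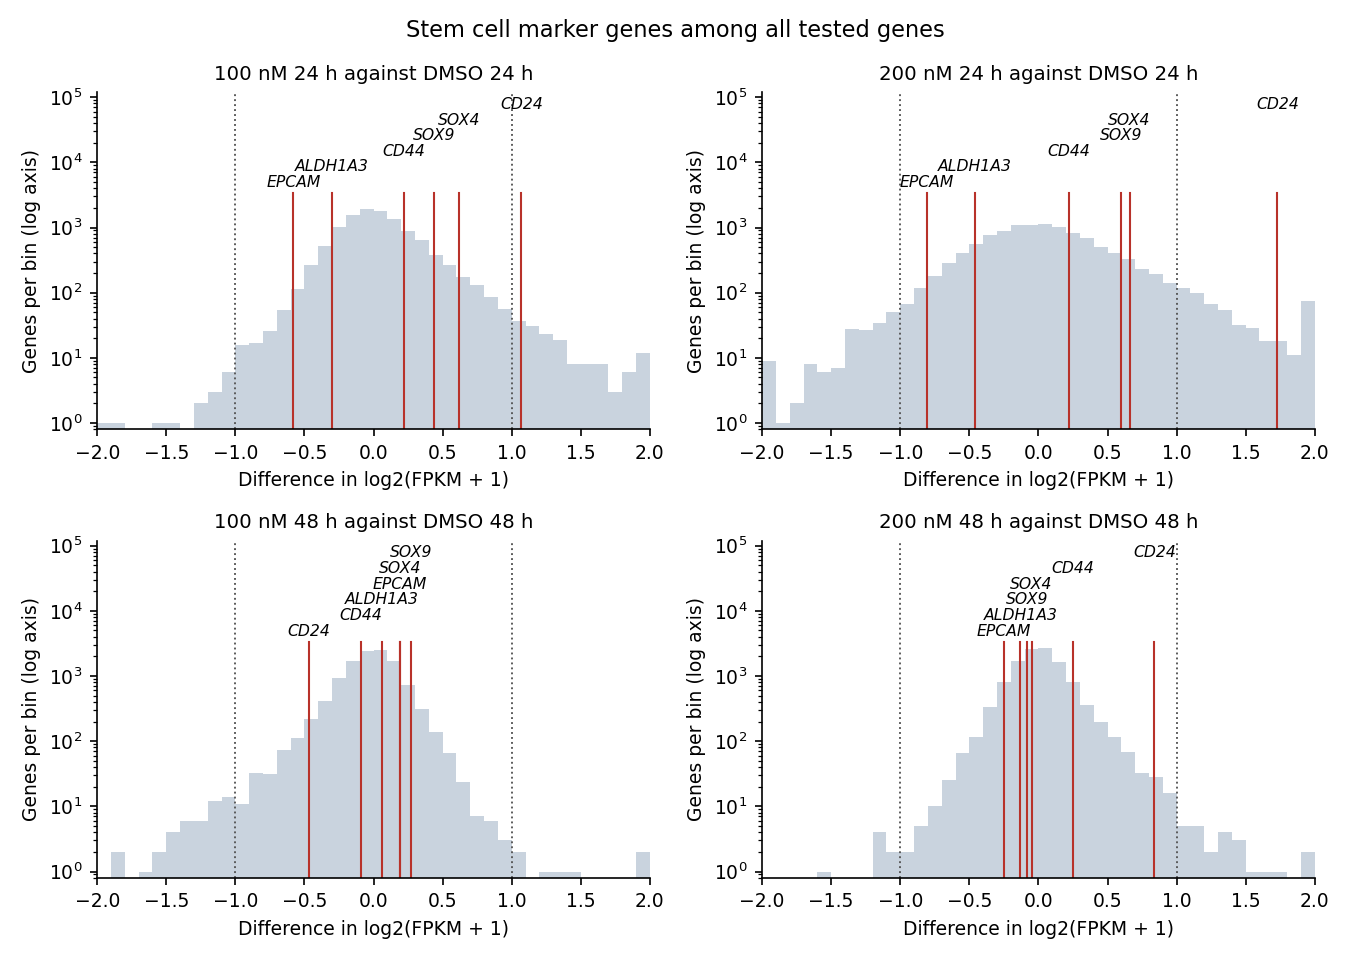
Number of genes (log axis) per bin of the difference in log2(FPKM + 1) for all tested genes, with end bins holding everything beyond 2 in size, in the 4 comparisons with DMSO of the same time; red lines mark the 6 tested markers and dotted lines a 2-fold difference. CD24 lies at 1.07 and 1.73 at 24 h, past the dotted line, and at -0.47 and 0.84 at 48 h, and the other 5 lie between the dotted lines.

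The CD24 value is less certain than its counts imply. The gene has near-identical copies elsewhere in the genome, and the deposited gene model (NCBI Gene ID 100133941) lies on chromosome Y, chrY:21152526-21154962 of hg19, whereas RefSeq on GRCh38.p14 places CD24 on chromosome 6. How fragments were divided between these copies could not be read from the files. The same model was used in all 6 libraries.

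CD44 is the receptor for hyaluronan, a long sugar chain of the extracellular matrix, and helps cells to attach and migrate. Its gene model (NCBI Gene ID 960) spans chr11:35160417-35253949 of hg19. CD44 was measured at 187.09, 218.74 and 217.95 FPKM in DMSO, 100 nM and 200 nM at 24 h, and at 164.06, 154.04 and 195.19 FPKM at 48 h. It was above 97.7% to 98.5% of all genes in every library, and its highest value was 1.42 times its lowest. Its log2 difference from DMSO was 0.22 at both doses at 24 h, and -0.09 and 0.25 at 100 nM and 200 nM at 48 h. As ratios to DMSO these were 1.17 (1.09 to 1.25) and 1.16 (1.09 to 1.25) at 24 h, and 0.939 (0.87 to 1.01) and 1.19 (1.1 to 1.28) at 48 h, so the interval of 100 nM at 48 h alone includes 1. A difference at least as high was found for 22.0% of genes with 100 nM and 31.5% with 200 nM at 24 h, and for 10.2% with 200 nM at 48 h.

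The ratio of CD44 to CD24 followed CD24, because CD44 varied little. In the order DMSO, 100 nM, 200 nM, it was 26.8, 13.9 and 8.52 at 24 h and 17.8, 24.0 and 11.2 at 48 h. At both times the lowest ratio belonged to 200 nM, and the ratio in the 100 nM 48 h library was close to that of DMSO 24 h. CD44 FPKM was above CD24 FPKM in all 6 libraries. These are ratios of RNA per length over the culture and not counts of cells with a surface pattern.

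Of 22 genes for the synthesis and cutting of hyaluronan, for the cytoskeletal partners of CD44 and for its splicing and shedding, 20 were listed. The most abundant were MSN, which links CD44 to actin, at 365.04 to 503.51 FPKM, the splicing factor SRSF3 at 65.48 to 97.09 FPKM, and EZR, a relative of MSN, at 81.52 to 106.79 FPKM. MMP14, a membrane protease that cuts CD44, was the only one of 16 tested genes called at 200 nM 24 h, at 23.35 FPKM against 59.34 in DMSO, a log2 difference of -1.31. Of all genes, 1.48% were called lower there and 4.47% higher. No gene of this list was called in the other 3 comparisons with DMSO, where between 0.06% and 1.35% of all genes were called in each direction. The list medians lay between -0.1 and 0.0, close to those of all genes. The epithelial splicing regulators ESRP1 and ESRP2, which favour CD44 variants with extra exons, did not exceed 0.27 and 0.36 FPKM. The files give 1 value per gene, so CD44 isoforms were not separated.

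EPCAM is an adhesion molecule of epithelial cells that can also signal to the nucleus after it is cut. Its gene model (NCBI Gene ID 4072) lies at chr2:47596287-47614167 of hg19. EPCAM was at 4.70, 2.81 and 2.26 FPKM at 24 h, in the order DMSO, 100 nM, 200 nM, and at 2.99, 3.56 and 2.35 FPKM at 48 h. DMSO 24 h stood above the other 5 libraries, and the ratio to it was 0.598 at 100 nM (0.45 to 0.784) and 0.481 at 200 nM (0.356 to 0.647). The log2 differences were -0.58 and -0.81, which 1.27% and 2.94% of genes matched or passed, and EPCAM was not called with a pseudocount of 1. With a pseudocount of 0.1 the 200 nM difference was -1.02 and EPCAM was called lower. At 48 h the ratios were 1.19 (0.892 to 1.59) and 0.786 (0.56 to 1.1), and both intervals include 1.

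The size of the EPCAM difference, and its direction for 100 nM at 48 h, depended on which DMSO library was the reference. DMSO 48 h was at 0.636 times DMSO 24 h (0.482 to 0.83). Against DMSO 48 h, the 24 h libraries differed by -0.07 and -0.29 on the log2 scale, the same sign as against DMSO 24 h. Against DMSO 24 h, the 48 h libraries differed by -0.32 with 100 nM and by -0.77 with 200 nM, where their own DMSO gave 0.19 and -0.25.

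Genes for EPCAM's partners and processing were read beside it. CLDN1, a tight junction claudin, was at 4.6, 19.16 and 24.67 FPKM at 24 h and at 16.36, 4.81 and 31.01 FPKM at 48 h, in the order DMSO, 100 nM, 200 nM. It was called higher at 24 h, with log2 differences of 1.85 and 2.20, and lower with 100 nM at 48 h, with -1.58. CTNNB1, CD9 and SPINT2 were the most abundant of these genes, between 46.07 and 139.25 FPKM, and none of the 3 was called.

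Aldehyde dehydrogenases of the ALDH1A group oxidise retinal to retinoic acid, and their activity is what a common flow cytometry assay for stem cells reads. ALDH1A1 (NCBI Gene ID 216) was listed at 0.02, 0 and 0 FPKM at 24 h and at 0, 0.02 and 0.03 FPKM at 48 h. At the inferred depth, each value equals at most 1 fragment, and 3 fragments would correspond to 0.0791 to 0.0913 FPKM, so no level or difference of ALDH1A1 was detectable. ALDH1A3 (NCBI Gene ID 220, chr15:101419897-101456831 of hg19) was the member of the pair with a level, at 2.86, 2.14 and 1.80 FPKM at 24 h and at 1.96, 2.08 and 1.71 FPKM at 48 h. DMSO 24 h was again the highest library. The ratio to DMSO was 0.748 (0.585 to 0.958) and 0.629 (0.482 to 0.812) at 24 h, and 1.06 (0.812 to 1.4) and 0.872 (0.651 to 1.18) at 48 h. None of these was called, and the intervals at 48 h include 1.

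In the family of 19 ALDH genes, ALDH1A3 ranked 12th by mean FPKM and ALDH1A1 18th. Together they made up 0.802% to 1.32% of the summed FPKM of the family, and the largest parts were ALDH9A1, ALDH18A1 and ALDH3A2, none of which is used as a stem cell marker. ALDH9A1 was at 48.09 to 52.98 FPKM, ALDH18A1, an enzyme of proline synthesis, at 26.35 to 37.41 FPKM and ALDH3A2, which oxidises fatty aldehydes, at 22.69 to 33.43 FPKM. Of 13 tested family members, 1 was called in the 4 comparisons, ALDH16A1 at 200 nM 24 h, with 3.39 FPKM against 10.45 in DMSO and a log2 difference of -1.38. Of all genes, 1.48% were called lower and 4.47% higher in that comparison. In the other comparisons with DMSO, between 0.06% and 1.35% of all genes were called in each direction. DMSO 24 h was the highest of the 6 libraries for ALDH16A1 as well.

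Genes that make, carry, sense and break down retinoic acid were read from a list of 22, of which 18 were present. At 200 nM 24 h, 3 of 11 tested genes were called higher and 0 lower, beside 4.47% and 1.48% of all genes, with a list median of 0.57 beside 0.01 over all genes. RARB, at 0.75 FPKM in DMSO 24 h and 2.2 FPKM with 200 nM, was tested there only because of its 200 nM level. It also enters the median. TGM2, a transglutaminase induced by retinoic acid, went from 51.57 to 109.18 FPKM, a log2 difference of 1.07. RARA, a retinoic acid receptor, was at 8.34 in DMSO and 21.29 FPKM at 200 nM, and CRABP2, which carries retinoic acid to the nucleus, at 3.66 and 9.62 FPKM, with differences of 1.25 and 1.19. FABP5 and RDH11, which with TGM2 were the most abundant of the list, were not called. None of the list was called at 100 nM 24 h or at 48 h. Between the DMSO libraries, 3 of 12 genes of this list were called higher at 48 h, beside 2.49% of all genes, TGM2 by 1.27, DHRS3 by 1.2 and RARB by 1.01 on the log2 scale. DHRS3 and RARB were at 0.76 and 0.75 FPKM in DMSO 24 h. Both were tested only because of their DMSO 48 h level and could only be called higher. TGM2 in DMSO 48 h, at 125.61 FPKM, was above its level with 200 nM at 24 h. RARA and CRABP2 in DMSO 48 h, at 15.6 and 7.45 FPKM, lay between DMSO 24 h and 200 nM 24 h.

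PROM1 (CD133) is a membrane protein of cell protrusions. It was listed at 0 FPKM in 5 libraries and at 0.01 FPKM in DMSO 48 h, where 3 fragments would correspond to 0.0429 to 0.0495 FPKM over the libraries. PROM1 was therefore not detectable at this depth in any condition. SOX2, a core factor of pluripotent cells, was measured at 0.07, 0.16 and 0.25 FPKM at 24 h and at 0.09, 0.07 and 0.13 FPKM at 48 h, which corresponds to about 3, 7 and 11 fragments and 4, 3 and 5 fragments. The highest library was 200 nM 24 h. Its ratio to DMSO was 3.57, with a counting interval of 1.0 to 21.2, and that of 100 nM 24 h was 2.29 (0.551 to 14.5). At these few fragments no difference of SOX2 could be resolved.

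SOX4 supports epithelial-mesenchymal transition and survival of tumour cells, and is a target of TGF-beta signalling. Its single-exon gene (NCBI Gene ID 6659) lies at chr6:21593972-21598850 of hg19. SOX4 was at 2.18, 3.89 and 4.02 FPKM at 24 h, from DMSO to 200 nM, and at 6.59, 7.68 and 6.35 FPKM in the 48 h libraries. All 3 libraries of 48 h were above all 3 of 24 h. The ratio to DMSO was 1.78 (1.49 to 2.15) and 1.84 (1.54 to 2.22) at 24 h, and 1.17 (1.04 to 1.31) and 0.964 (0.85 to 1.09) at 48 h. The log2 differences, 0.62 and 0.66 at 24 h and 0.19 and -0.05 at 48 h, were not called.

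The largest difference of SOX4 was between the libraries without drug. DMSO 48 h was 3.02 times DMSO 24 h (2.57 to 3.59), a log2 difference of 1.26, and SOX4 was the 1 marker called higher of 6, with 0 called lower. Of 11490 genes, 2.49% were called higher and 0.131% lower in this comparison, and 1.19% had a difference at least as high as SOX4. With DMSO 48 h as the reference, SOX4 at 24 h was below DMSO by -0.63 at 100 nM and -0.6 at 200 nM, so the sign turned. Only the time separates these libraries in their labels, and time in culture cannot be told apart from a property of either of them.

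SOX9 is a factor of mammary luminal progenitors and of cartilage. Its gene (NCBI Gene ID 6662) lies at chr17:70117161-70122561 of hg19. SOX9 was at 9.72, 13.59 and 15.27 FPKM in DMSO, 100 nM and 200 nM at 24 h, and at 16.34, 19.89 and 15.35 FPKM at 48 h. DMSO 24 h was the lowest library, as for SOX4, and 100 nM 48 h the highest. The ratio to DMSO was 1.4 (1.27 to 1.55) and 1.57 (1.43 to 1.73) at 24 h, and 1.22 (1.12 to 1.32) and 0.939 (0.861 to 1.03) at 48 h. No difference of SOX9 was called at 2-fold. Between the DMSO libraries the ratio was 1.68 (1.53 to 1.85), and against DMSO 48 h the 24 h libraries differed by -0.25 and -0.09 on the log2 scale.

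Of 20 SOX genes looked for, 14 were listed, and SOX9 and SOX4 came next after SOX12 and SOX13 by mean FPKM, with SOX2 in place 11. SOX12, the close relative of SOX4, was at 19.9, 22.07 and 22.63 FPKM at 24 h and at 23.84, 27.75 and 20.09 FPKM at 48 h. SOX13 was at 17.28 to 23.82 FPKM. Neither was called in any of the 4 comparisons with DMSO. SOX2, SOX4 and SOX9 together took 23.3% of the summed SOX FPKM in DMSO 24 h and between 29.4% and 35.5% in the other 5 libraries.

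**Figure D4:**
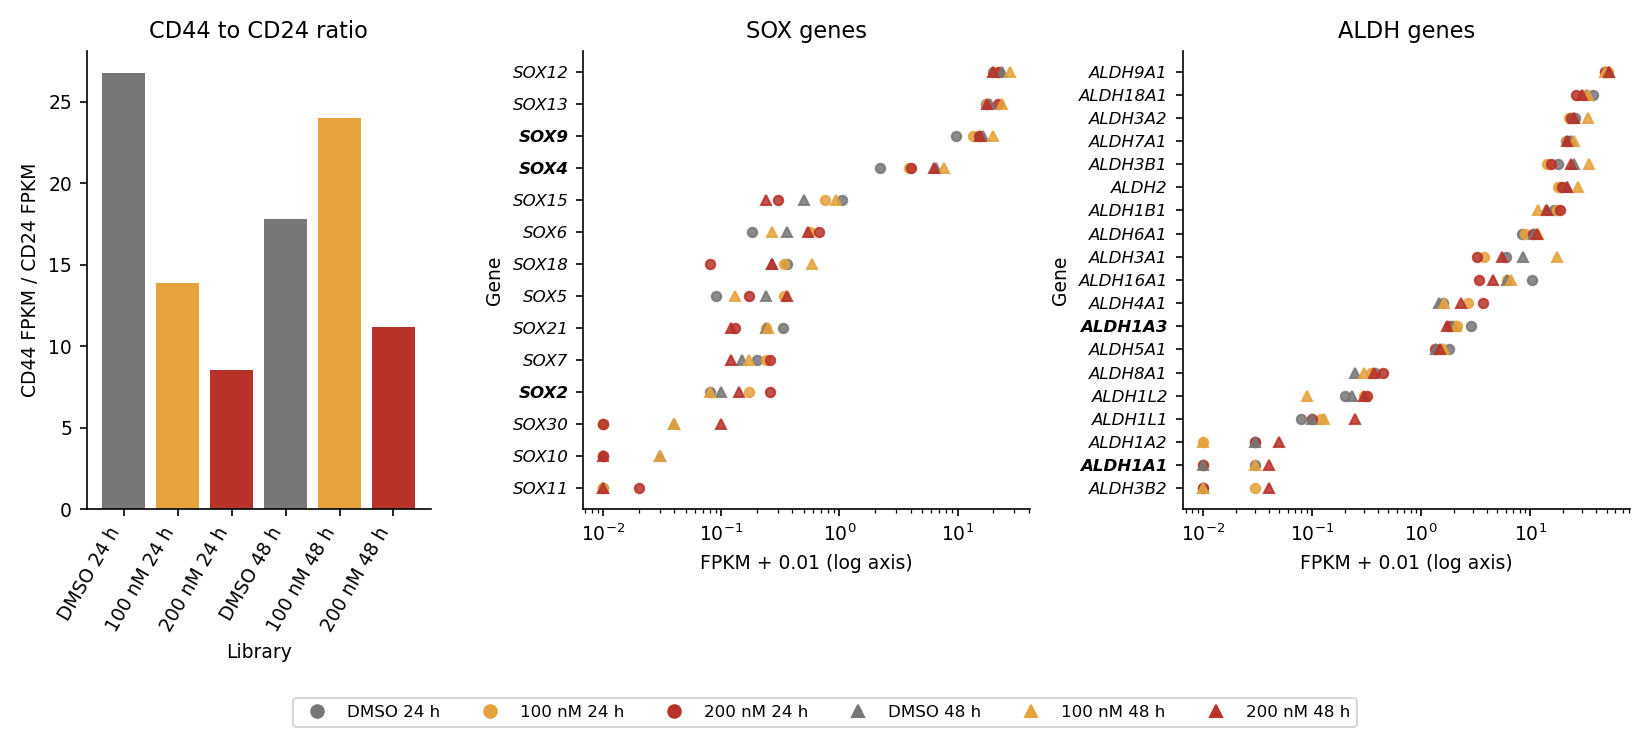
Left, the ratio of CD44 FPKM to CD24 FPKM in each library, with bars from 0; middle and right, FPKM + 0.01 (log axes) of the 14 SOX and 19 ALDH genes listed, each point 1 library, circles for 24 h and triangles for 48 h, with the marker genes in bold. The ratio is lowest at 200 nM at both times (8.52 and 11.2), SOX9 and SOX4 lie just below SOX12 and SOX13, and ALDH1A1 and ALDH1A3 lie well below ALDH9A1.

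The DMSO 24 h library was the highest of all 6 for EPCAM and ALDH1A3 and the lowest for SOX4 and SOX9, so for these 4 genes each of the other libraries, drug or not, stood on the same side of it. This was not the case for CD24, for which 100 nM 48 h was the lowest library, nor for CD44. With each DMSO library replaced by that of the other time, CD24 differed by 0.71 and 1.38 on the log2 scale in the 24 h libraries of 100 nM and 200 nM, and by -0.11 and 1.2 in those of 48 h. CD24 was thus higher with 200 nM than with DMSO under either reference, and 3 of these 4 differences at 200 nM were called. SOX4 was called higher at 48 h under the exchanged reference, at 1.45 and 1.21. The sum of the markers of other cell types was 1.2 FPKM in DMSO 24 h and 2.31 in DMSO 48 h, and its part in these differences was not tested.

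The genes closest to CD24 over the 6 libraries were sought among 2658 genes with a mean of at least 5 FPKM and a 1.5-fold range. By Pearson's r of log2(FPKM + 1), CHST11 (0.999), which sulphates chondroitin, and XPR1 (0.995), a phosphate exporter, were among the closest. CHST11 was at 15.21, 22.11 and 27.73 FPKM at 24 h and at 17.22, 14.15 and 22.85 FPKM at 48 h, which is the order of CD24. For SOX4 the closest were MRC2 (0.994), PHF21A (0.992) and LAMA5 (0.991), and for SOX9 NR1D1 (0.99), SPRY1 (0.987) and SECTM1 (0.982). An r of at least 0.9 was reached by 229 genes with CD24, 176 with SOX4 and 94 with SOX9, so these patterns were shared by many genes. The points share 6 libraries, 1 per condition, and r is given as a description only.

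Other surface proteins used to find breast stem and progenitor cells were read from a list of 20, of which 19 were present and 10 tested. At 24 h, 1 was called higher at 100 nM, beside 1.35% of all genes, and 2 at 200 nM, beside 4.47%, and none was called lower. DCLK1, a kinase that marks tuft cells and some tumour stem cells, was at 0.42, 2.65 and 2.70 FPKM at 24 h and at 1.76, 0.48 and 3.02 FPKM at 48 h, with differences of 1.36 and 1.38 at 24 h. ITGB3, an integrin subunit, was at 0.98, 2.86 and 4.62 FPKM at 24 h and at 5.34, 2.41 and 10.38 FPKM at 48 h. It was called with 200 nM at 24 h, with 1.51, and differed more, by 1.68, between the DMSO libraries, so that DMSO 48 h lay above both treated libraries of 24 h. The called genes, DCLK1 and ITGB3, were both under 1 FPKM in DMSO 24 h. In comparisons with that library they were tested only because of their level in the other library and could only be called higher. None of the 10 was called at 48 h against DMSO. The most abundant of the list, the integrin ITGB1, the complement regulator CD55 and the integrin ITGA6, were not called in any of the 4 comparisons, and ITGB1 ranged from 1120.71 to 1533.43 FPKM. DCLK1 was lowest in DMSO 24 h, at 0.42 FPKM beside 0.48 in 100 nM 48 h. It was highest in 200 nM 48 h, at 3.02 FPKM beside 2.70 in 200 nM 24 h. CD24 had these neighbours the other way round, and the order of the libraries was otherwise the same for both genes.

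Factors of pluripotency and self-renewal made up a list of 25, all present. At 200 nM 24 h, 5 of 17 tested genes were called higher and 0 lower, beside 4.47% and 1.48% of all genes, with a median of 0.49 beside 0.01 over all genes. MYC was at 111.93 FPKM against 48.7 in DMSO, a log2 difference of 1.18, and DMSO 48 h lay between them at 73.36 FPKM. The others were the Notch targets HES1 (1.21) and HEY1 (1.23), the Hedgehog effector GLI1 (1.36) and the receptor NOTCH3 (1.04), and of these HEY1 and GLI1 were under 2 FPKM in every library. In DMSO 24 h, HES1, HEY1 and GLI1 were under 1 FPKM, at 0.94, 0.19 and 0.08. They were therefore tested only because of their 200 nM level and could only be called higher, and they also enter the median. NOTCH3 was at 1.34 FPKM in DMSO 24 h, 3.81 with 200 nM at 24 h and 4.13 in DMSO 48 h, so it was below DMSO 48 h, and the DMSO libraries differed by 1.13. None of the list was called in the other 3 comparisons with DMSO. ID1, ZEB1 and MYC were the most abundant of the list, and ID1 and ZEB1 were not called. NANOG did not exceed 0.48 FPKM, and POU5F1, which has expressed near-identical copies, was at 1.49 to 2.69 FPKM.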

How the data were processed

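RNA was extracted with TRIzol, and the libraries were made and sequenced by a sequencing company. The authors deposited 1 file per library with an FPKM value for each of 16623 genes, rounded to 2 decimals. The submitters' processing notes name Bowtie2, RSEM and hg19 without versions or roles, and the filter that led to these genes is not given in the sources used here. The files hold no counts.

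The markers and gene lists were chosen with earlier results of these data known. Symbols were matched by NCBI Gene ID to RefSeq on GRCh38.p14, which named 16585 of the genes and left 38 unnamed. Differences are those of log2(FPKM + 1), with a pseudocount of 1 that understates differences of low genes. No test was used and no p-value was calculated, because there was 1 library per condition. Genes that reached an FPKM of 1 in either library were tested, and the call was made at 2-fold.

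Depth was inferred from steps between low values of single-transcript genes of 500 to 1500 nt, with lengths from GENCODE release 29, and is approximate. Fragments per gene were estimated with the shortest listed transcript of each gene, which gives the widest interval. Poisson intervals for levels and binomial intervals for ratios, both exact at 95%, cover counting error only, and the floor is 3 fragments.

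All 9 markers are named, and from each other list the 3 genes with the highest mean and up to 4 with the largest called difference. Not every gene that meets this rule is reported here. A few further genes (CDH1, ESR1, PGR, ERBB2, FOXA1, the ESRP genes, NANOG, POU5F1, SOX12, DHRS3 and RARB) were added with their values in view. Alternatives were pseudocounts of 0.1 and 0.01, no filter, a filter on both libraries, rescaling to TPM, median-of-ratios factors, a 1.5-fold threshold and the DMSO library of the other time. The calling steps were also run on simulated data, and the outcome of that run is not reported here. Simulated data cannot show how far repeated cultures of these cells would differ, so the run does not measure how reliable the calls are. Python 3.11.15, numpy 2.4.6, pandas 2.3.3, scipy 1.17.1 and matplotlib 3.10.9 were used. The authors' own analyses of pathways were not used here.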

Additional observations from a re-analysis of the deposited data

Results flagged for a closer look

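CD24 differed in opposite directions with 100 nM PCI-24781 at the 2 times, by 1.07 at 24 h and by -0.47 at 48 h on the scale of log2(FPKM + 1). With 1 library for each condition, the difference between these values was not tested. With the DMSO libraries exchanged, the values were 0.71 and -0.11.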

How the results depend on the processing

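No paired analysis was possible because there was 1 library for each condition, and for the same reason no library could be left out of a group. The alternatives did not cover the other gene lists. Filters, the fold threshold and pseudocounts cannot turn the sign of a difference. The factors for TPM and median-of-ratios were too alike between libraries to turn a called one. The exchanged DMSO library could, and the 2 calls of CD24 at 24 h kept their sign with it, at 0.71 and 1.38. It was not applied to the call of SOX4 between the DMSO libraries. At a 1.5-fold threshold the markers called higher were 2 at 100 nM 24 h (CD24, SOX4), 3 at 200 nM 24 h (CD24, SOX4, SOX9), 1 at 200 nM 48 h (CD24) and 2 between the DMSO libraries (SOX4, SOX9), and 1 was called lower at 200 nM 24 h (EPCAM). The share of all genes called was not counted for any alternative. Differences at least as high were found for 4.99% of genes for SOX4 at 100 nM 24 h and 12.1% for SOX9 at 200 nM 24 h. The shares were 0.506% for CD24 at 200 nM 48 h and 6.03% for SOX9 between the DMSO libraries. For EPCAM at 200 nM 24 h, 2.94% were at least as low. EPCAM was also the 1 marker called lower at 200 nM 24 h with pseudocounts of 0.1 and 0.01. With the DMSO library of the other time as reference, 0 markers were called higher at 100 nM 24 h, 1 at 100 nM 48 h (SOX4) and 2 at 200 nM 48 h (CD24, SOX4), and 9 of 36 differences turned their sign. None of the 9 was called against the DMSO of its own time, and 1 of them, SOX4 at 200 nM 48 h (-0.05 to 1.21), was called with the exchanged reference. Without a filter, with 1 FPKM in both libraries, as TPM and with median-of-ratios factors, the 2 calls of CD24 at 24 h and that of SOX4 between the DMSO libraries stood, and no other marker was called in the 5 comparisons. The cause of these changes was not tested. SOX2, ALDH1A1 and PROM1 rest on at most 11 fragments per library, and their log2 differences moved most with the pseudocount.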
